A study of Mus musculus with 113 samples.

Results

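Embryos with a knockdown (KD) of *Rarg* were compared at the 8-cell (8C) stage with negative control (NC) embryos of the same experiment. The 2 *Rarg* KD and 2 NC RNA-seq libraries, 4 of the 113 samples of the series, were taken by their labels, and no measured value entered the choice. The series tests nuclear receptors in mouse embryos between zygotic genome activation and the first lineage choice, by injecting siRNAs against 1, 3 (3KD) or 4 receptors (4KD). Single KD embryos of *Nr5a2*, *Nr1h3* and *Nr2c2* were sequenced beside the *Rarg* KD embryos and share their NC libraries. All embryos carried a wild type genotype and came from superovulated C57BL/6N females mated to PWK/PhJ males. Zygotes received siRNA against *Rarg* at 5 μM in the KD group and a control siRNA at 5 μM in the NC group. In the 8C libraries of the 3KD and 4KD experiments, also used below, the control siRNA was at 15 and 20 μM, and the KD groups are labelled 5 μM. Each Smart-seq2 library was made from a pool of several embryos, so differences between single embryos are not seen, and fewer cells of a kind and less RNA per cell cannot be told apart. An siRNA KD is also partial, and maternal RARG protein, if there is any, is not touched by it.

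RARG is 1 of the retinoic acid receptors, nuclear receptors that bind DNA as a pair with a retinoid X receptor (RXR). Without ligand such a pair holds corepressors at its target genes, and with retinoic acid it exchanges them for coactivators. Retinoic acid itself is made from retinol by dehydrogenases and broken down by CYP26 enzymes. It is best known for patterning the embryo after implantation and for driving embryonic stem cells out of pluripotency.

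Markers of 8C embryos were present in the libraries. Of the 15, *Cdx2* alone was listed at 0 in one of them, *Rarg* KD rep 1, and *Pou5f1* was at 102 to 167 FPKM (the number of fragments scaled to transcript length and library size). Their median log2 fold change in *Rarg* KD was -0.26 with 10 of 15 below 0, and the difference from the NC mean was -0.70 in *Rarg* KD rep 1 and 0.13 in *Rarg* KD rep 2. Of 24 cumulus and granulosa cell markers, 16 were listed at 0 in all 4 libraries, including *Fshr*, *Lhcgr* and *Cyp19a1*. Their summed level was 15.0 to 20.3 FPKM in NC and 20.1 and 54.2 FPKM in *Rarg* KD, nearly all from *Amhr2* and *Serpine2*. Depth, read from the smallest FPKM steps relative to NC rep 1, was 1.42 in NC rep 2, 0.774 in *Rarg* KD rep 1 and 1.40 in *Rarg* KD rep 2. The 10 most abundant genes took 21.4% of the FPKM in *Rarg* KD rep 1 and 13.4% to 14.9% in the other 3 libraries. An FPKM of 1 was reached by 8258 genes in *Rarg* KD rep 1 and by 9511 in *Rarg* KD rep 2, against 8617 and 8740 in NC. The KD libraries correlated with each other at r = 0.934 across genes, less than the NC libraries did (0.957), and at 0.940 to 0.947 with the NC libraries.

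*Rarg* itself (chromosome 15, 102065369 to 102087948 in mm9) was at 28.0 and 33.0 FPKM in NC and at 3.64 and 5.47 FPKM in *Rarg* KD embryos. Both KD libraries lay far below both NC libraries, with 14.9% of the NC mean left. The log2 fold change on the log2(FPKM + 1) scale was -2.52 (standard error 0.385, unadjusted p = 3.42e-05, adjusted p = 0.116 from limma over 10163 genes). *Rarg* was therefore the targeted transcript with a large and replicated difference that did not pass an adjusted p of 0.05. It passed with median-ratio scaling or quantile normalization (adjusted p = 0.0168 and 0.0167). In the other single KD groups *Rarg* was at 38.5 and 23.0 FPKM after *Nr5a2* siRNA, at 12.99 and 12.2 FPKM after *Nr1h3* siRNA and at 18.9 and 19.1 FPKM after *Nr2c2* siRNA. The level after *Rarg* siRNA was below each of these 6 libraries. Against their mean the log2 difference was -1.89 (unadjusted p = 7.3e-05, adjusted p = 0.209 from limma).

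Other 8C libraries of the series received *Rarg* siRNA together with other siRNAs, each against NC libraries of their own. In the 3KD experiment *Rarg* was at 1.61 to 3.60 FPKM in the 6 libraries with *Rarg* siRNA and at 23.9 and 4.54 FPKM in the 2 libraries that lacked it. Its NC libraries were at 17.6 and 2.18 FPKM, so that NC rep 2 of that experiment lay within the range of the libraries with *Rarg* siRNA. In 8C 4KD embryos *Rarg* was at 4.27 and 4.40 FPKM, against 7.31 and 17.2 FPKM in their NC. At 8C the 10 libraries with *Rarg* siRNA thus held 1.61 to 5.47 FPKM, and that NC library and 1 of the 3KD libraries without it fell in the same range.

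**Figure D1:**
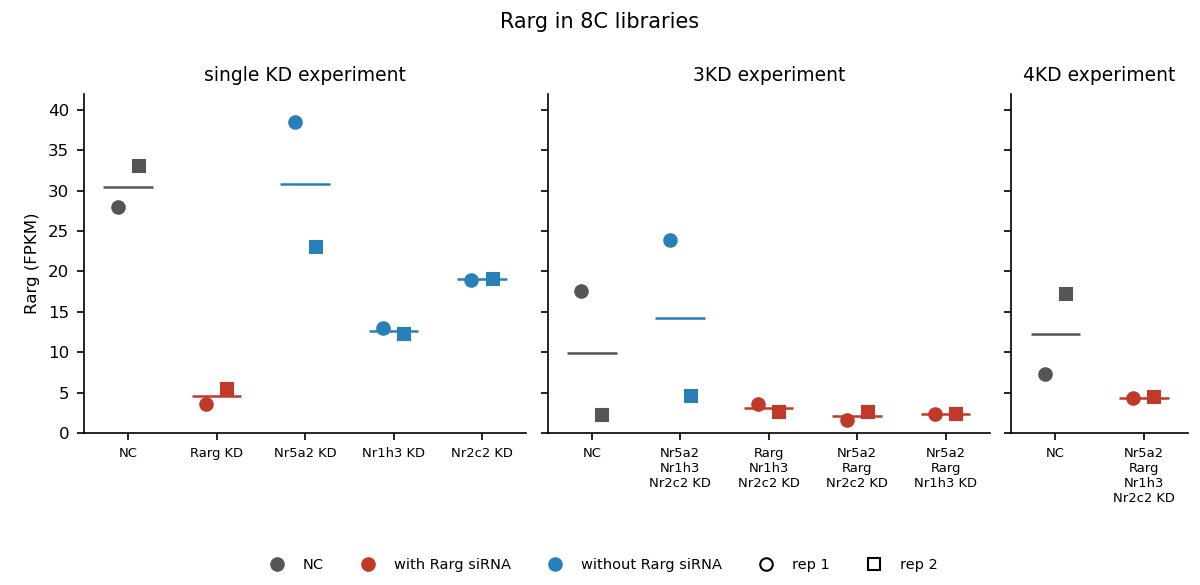
*Rarg* level in FPKM (vertical axis) in each 8C library of the single KD, 3KD and 4KD experiments, with groups named by the siRNAs they received. Circles and squares are replicates 1 and 2, lines are group means, and red marks libraries with *Rarg* siRNA, which lie between 1.61 and 5.47 FPKM.

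The paralogs and partners of *Rarg* did not take a comparable step. *Rarb*, another retinoic acid receptor and a classical target of the pathway, was at 2.77 and 3.60 FPKM in NC and at 3.74 and 3.99 FPKM in *Rarg* KD. *Rara* stayed between 0.0939 and 0.479 FPKM in the 4 libraries, under the filter. *Rarg* was therefore the most abundant retinoic acid receptor transcript in NC embryos, on the length-scaled FPKM. Among the RXR partners, *Rxrb* was at 6.09 and 11.5 FPKM in NC and at 5.23 and 12.8 FPKM in KD, *Rxra* was at 3.10 and 3.06 FPKM in NC and at 2.66 and 1.53 FPKM in KD, and *Rxrg* was listed at 0 throughout. None of these passed an unadjusted p of 0.05 (*Rarb* 0.583, *Rxra* 0.396, *Rxrb* 0.966 from limma). The transcripts aimed at in the neighbouring groups kept levels near NC. *Nr5a2*, which encodes the orphan receptor also called LRH-1, was at 50.2 and 48.8 FPKM in NC and at 42.3 and 44.6 FPKM in *Rarg* KD. *Nr1h3*, which encodes the liver X receptor alpha, was at 9.32 and 11.99 FPKM in NC and at 9.76 and 6.48 FPKM in KD. *Nr2c2* was at 7.81 and 12.2 FPKM in NC and at 8.14 and 9.87 FPKM in KD.

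Across all genes few differences between *Rarg* KD and NC passed an adjusted p. With the limits used by the study (a log2 fold change of 2 in size or more, adjusted p below 0.01) 0 of 10163 genes were changed, which is 0% of those tested, while 382 genes (3.76%) had an unadjusted p under 0.05 from limma. At an adjusted p under 0.05 the count was 1 gene (0.00984%). A wider pair of limits, a log2 fold change of 1 in size or more with an unadjusted p below 0.05, was passed by 169 lower genes (1.66%) and 151 higher genes (1.49%), 3.15% in all. With almost no gene past an adjusted p, the wider limits serve to order genes and not to call them. With median-ratio scaling they were passed by 113 lower and 177 higher genes, so the balance of the directions depends on the scaling. The median of all genes was -0.079 on the log2 scale.

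The 2 KD libraries did not move alike. Against the NC mean 1132 genes were lower by at least 1 log2 unit in *Rarg* KD rep 1 and 185 in *Rarg* KD rep 2, and 88 genes were so in both. In the other direction 309 genes were higher by at least 1 in rep 1, 917 in rep 2 and 115 in both. *Rarg* KD rep 1 had the lower depth and the larger share of its FPKM in few genes, and the part of these measures in the difference was not tested. Leaving out *Rarg* KD rep 1 turned the counts at the wider limits to 61 lower and 562 higher genes, and leaving out *Rarg* KD rep 2 turned them to 659 lower and 164 higher genes. Of the 320 genes at the wider limits, 132 and 197 passed them again in these fits. The median of all genes moved to 0.13 without *Rarg* KD rep 1 and to -0.29 without *Rarg* KD rep 2. Results given for single genes below are therefore shown library by library.

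**Figure D2:**
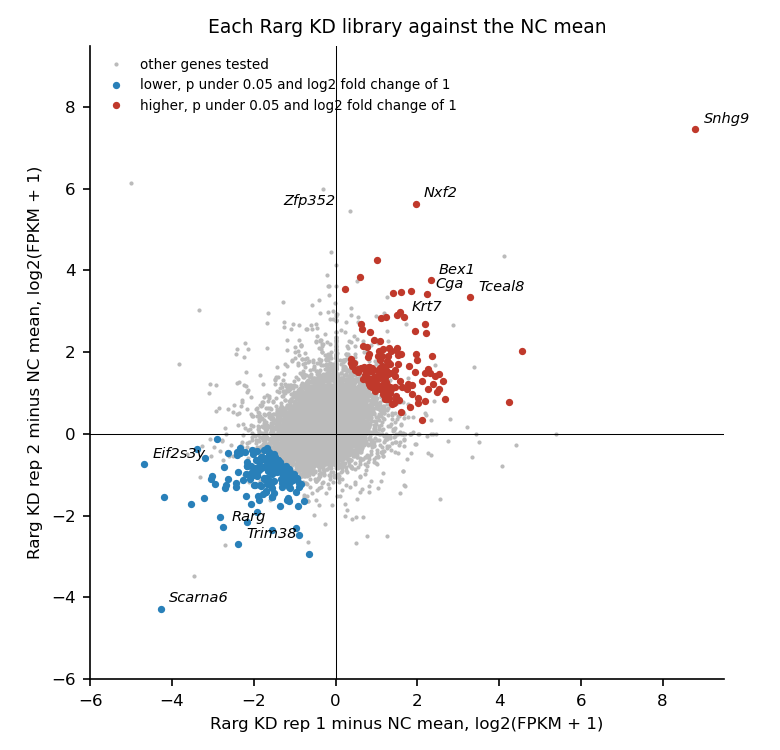
Difference of *Rarg* KD rep 1 (horizontal axis) and of *Rarg* KD rep 2 (vertical axis) from the NC mean on the log2(FPKM + 1) scale, 1 point per gene for 10163 genes. Blue and red points are the 169 lower and 151 higher genes at the wider limits, and *Rarg*, *Trim38* and *Tceal8* lie near the diagonal while *Nxf2* and *Eif2s3y* owe more to 1 library.

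The 1 gene with an adjusted p under 0.05 was *Scarna6*, a small Cajal body RNA gene. It was at 30.4 and 11.02 FPKM in NC and listed at 0 in both *Rarg* KD libraries (adjusted p = 0.0106 from limma). The same 0 stood in all 6 libraries of the *Nr5a2*, *Nr1h3* and *Nr2c2* KD groups, so the call rests on the shared NC libraries and sets *Rarg* KD apart from none of the other groups. A listed 0 can also be a failed estimate, since 2 of 75 ribosomal protein and other housekeeping genes (*Rpl28* and *Rps28*) were listed at 0 in at least 1 of the 4 libraries.

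Among the lower genes at the wider limits, 114 had no overlap between the KD and NC libraries and a mean of at least 5 FPKM in 1 group, and the 15 of them with the largest fold change are described here. With 2 libraries a group, groups can easily separate without a real difference. The share of all genes without overlap was not counted, so here and below non-overlap only describes the values. *Trim38*, which encodes a ubiquitin ligase that dampens innate immune signalling, was at 4.80 and 14.6 FPKM in NC and at 0.828 and 0.458 FPKM in *Rarg* KD. Its log2 fold change was -2.54 (standard error 0.512, unadjusted p = 0.000372, adjusted p = 0.54 from limma). The same NC libraries also stood above the other single KD groups, with log2 fold changes of -3.25 in *Nr5a2* KD (adjusted p = 0.0074 from limma), -1.20 in *Nr1h3* KD and -1.18 in *Nr2c2* KD, so a low *Trim38* level was not particular to *Rarg* KD. Low levels in both KD libraries were also seen for *Tex101*, a germ cell surface protein gene, at 13.4 and 13.3 FPKM in NC and at 3.88 and 1.79 FPKM in KD.

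For *Nr4a1*, an immediate early gene that encodes an orphan nuclear receptor, NC libraries were at 5.58 and 5.49 FPKM and KD libraries at 0 and 1.62 FPKM. *Gzmm*, a granzyme gene, was at 11.98 and 5.77 FPKM in NC and at 0 and 2.17 FPKM in KD. *2700094K13Rik* was at 70.1 and 62.5 FPKM in NC and at 7.68 and 27.9 FPKM in KD. In these 3 genes both KD libraries were low, with rep 1 the lower one. Their log2 fold changes were -2.01, -2.40 and -2.09 (unadjusted p = 0.00202, 0.00172 and 0.00614 from limma). *Nr4a1* was also lower in *Nr5a2* KD against the same NC libraries, with a log2 fold change of -2.57 (adjusted p = 0.023 from limma). *Nme4*, a mitochondrial nucleoside diphosphate kinase gene, was at 44.1 and 52.4 FPKM in NC and at 4.33 and 31.6 FPKM in KD. *Rpph1*, the RNA component of RNase P, was at 644 and 282 FPKM in NC and at 51.6 and 208 FPKM in KD. The low value of both genes came mostly from *Rarg* KD rep 1.

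A further 6 members of this set were listed at 0 in *Rarg* KD rep 1 and above 0 in rep 2. They were *Abhd11os* (15.9 and 18.6 FPKM in NC, 5.203 FPKM in KD rep 2), *2200002D01Rik* (8.54 and 13.3 against 2.52 FPKM), *Urah* (12.3 and 2.77 against 0.717 FPKM), *Gm14005* (5.49 and 9.60 against 2.88 FPKM), *Josd2* (10.4 and 2.59 against 1.70 FPKM) and *Eif2s3y* (15.7 and 38.6 against 14.4 FPKM). *Eif2s3y* is Y-linked and encodes a subunit of the translation factor eIF2, and its KD rep 2 level was close to that of NC rep 1. The remaining 2 of the 15 were *Scarna6* and *Rarg*. Against the other single KD groups the lower level in *Rarg* KD had an unadjusted p under 0.05 for *Urah* (log2 difference -2.71, p = 0.00337), *Gzmm* (-1.73, p = 0.00393), *Josd2* (-1.96, p = 0.00366), *Nme4* (-1.39, p = 0.0284) and *2700094K13Rik* (-1.24, p = 0.0319) beside *Rarg*, and none of these p from limma stayed under 0.05 when adjusted.

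Of the higher genes at the wider limits 59 met the same conditions, and the 15 largest are described. *Tceal8*, an X-linked gene of a transcription elongation factor family, was at 0.388 and 0.271 FPKM in NC and at 12 and 12.4 FPKM in *Rarg* KD. The 2 libraries of each group were close, and the log2 fold change was 3.32 (standard error 0.505, unadjusted p = 3.26e-05, adjusted p = 0.116 from limma), the same adjusted p as *Rarg*. It was also higher than in the other single KD groups, by 2.38 on the log2 scale (unadjusted p = 0.000103, adjusted p = 0.209 from limma). Against the same NC libraries *Tceal8* was also higher in *Nr1h3* KD (log2 fold change 1.795, 6.47 and 1.84 FPKM) and *Nr2c2* KD (0.97), and near NC in *Nr5a2* KD (0.032).

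*Cga*, which encodes the alpha subunit shared by the glycoprotein hormones, was listed at 0 in both NC libraries and at 3.73 and 9.63 FPKM in *Rarg* KD. *Krt7*, a keratin of trophectoderm and other simple epithelia, was at 1.18 and 0.823 FPKM in NC and at 5.32 and 13.5 FPKM in KD. *Rgcc*, a regulator of cell cycle gene, was at 0.610 and 1.28 FPKM in NC and at 4.76 and 14.1 FPKM in KD. All 3 were higher in both KD libraries, with rep 2 the higher one. For *Krt7* the log2 fold change was 2.26 (unadjusted p = 0.00147) and the log2 difference from the other single KD groups 1.98 (unadjusted p = 0.000878), and for *Rgcc* these values were 2.28 (p = 0.00185) and 1.11 (p = 0.0346), all from limma. *Hmox1*, the inducible heme oxygenase, was at 0.296 and 7.26 FPKM in NC and at 7.66 and 34.8 FPKM in KD, so that KD rep 1 was only just above NC rep 2.

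*Snhg9*, a snoRNA host gene, was listed at 0 in both NC libraries and at 446 and 174 FPKM in *Rarg* KD. The neighbouring groups also held it, with values that did not separate *Rarg* KD from them (log2 difference 1.81, unadjusted p = 0.2 from limma). *Cox8c*, a testis form of a cytochrome c oxidase subunit, was listed at 0 in NC and at 2.61 and 10.2 FPKM in KD. It was also at 6.655 and 17.6 FPKM in *Nr5a2* KD. Its log2 difference between *Rarg* KD and the other single KD groups was 0.68 (unadjusted p = 0.394 from limma). *Gm13119*, a gene of the PRAME-like family, was at 0 and 1.95 FPKM in NC and at 2.48 and 31.8 FPKM in KD.

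The remaining 7 of the 15 higher genes were X-linked, as was *Tceal8*. *Nxf2*, an RNA export factor gene, was at 1.64 and 1.01 FPKM in NC and at 7.98 and 114 FPKM in *Rarg* KD. *Bex1* was at 51.6 and 3.70 FPKM in NC and at 78.0 and 213 FPKM in KD, and *Xlr* was at 3.48 and 0.371 FPKM in NC and at 10.3 and 15.0 FPKM in KD. *Ngfrap1* was at 2.37 and 0 FPKM in NC and at 4.58 and 19.4 FPKM in KD, and *Gm773* was at 2.30 and 0 FPKM in NC and at 7.49 and 9.12 FPKM in KD. The homeobox genes *Rhox9* (4.498 and 0 FPKM in NC, 54.4 and 8.58 FPKM in KD) and *Rhox6* (0 in both NC libraries, 18.1 and 0.716 FPKM in KD) owed most to KD rep 1. NC rep 1 was above NC rep 2 for all of these except *Rhox6*, which was at 0 in both. Against the same NC libraries *Bex1* was also higher in *Nr5a2* KD (log2 fold change 2.68) and *Nr2c2* KD (2.47). *Rhox9* and *Rhox6* were also higher in *Nr1h3* KD (3.12 and 2.42). In the contrast with the other single KD groups *Bex1* and *Rhox6* had unadjusted p of 0.445 and 0.0659 from limma. For *Nxf2*, *Xlr*, *Ngfrap1*, *Gm773* and *Rhox9* it was under 0.05, though not when adjusted.

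**Figure D3:**
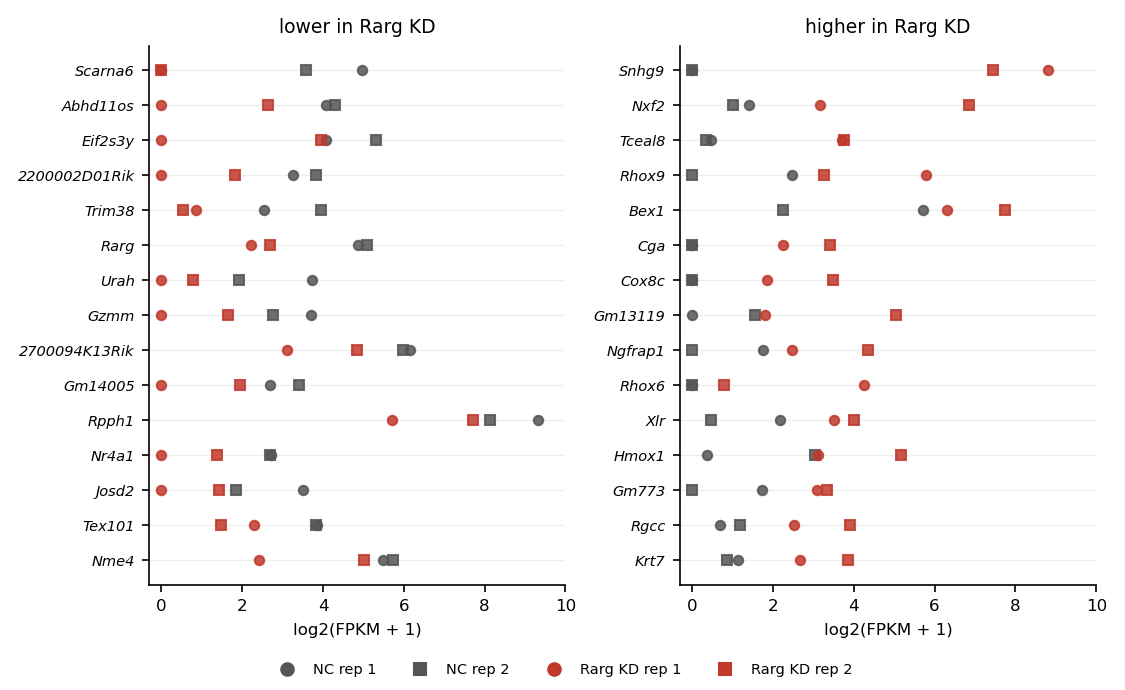
Level on the log2(FPKM + 1) scale (horizontal axis) of the 15 lower (left) and 15 higher (right) genes named by size of the fold change, with 1 symbol per library, NC in grey and *Rarg* KD in red. By the rule that chose them the red and grey symbols of a gene do not overlap, and for 8 of the lower genes *Rarg* KD rep 1 (red circle) lies at 0 while *Rarg* KD rep 2 (red square) lies above 0.

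A start-site window of 300 bases (250 before and 50 after the start, RefSeq, GRCm38.p6) was read for these genes where the table held it, because RAR and RXR pairs bind direct repeats of the half-site AGGTCA. Of 10163 genes tested, 7707 (75.8%) had a window. The half-site, on either strand, was in the windows of 15% of the genes tested, of 17 of 130 lower genes (13.1%) and of 21 of 101 higher genes (20.8%) at the wider limits. The related half-site AGTTCA was in 11.6% of all tested genes, in 15.4% of those lower and in 13.9% of those higher. The repeats AGGTCANNAGGTCA, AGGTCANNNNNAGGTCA and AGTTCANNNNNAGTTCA were each in 0 windows of the lower and higher genes, and in 0.00913%, 0.00913% and 0.0244% of all 32851 windows in the table. The windows below belong to *Rarg* and to the named lower gene *Gzmm* and higher genes *Cga* and *Krt7* that held AGGTCA. They are written in the direction of the gene, with the half-site or its complement in capitals.
Rarg (chr15:102257473-102257772, minus strand): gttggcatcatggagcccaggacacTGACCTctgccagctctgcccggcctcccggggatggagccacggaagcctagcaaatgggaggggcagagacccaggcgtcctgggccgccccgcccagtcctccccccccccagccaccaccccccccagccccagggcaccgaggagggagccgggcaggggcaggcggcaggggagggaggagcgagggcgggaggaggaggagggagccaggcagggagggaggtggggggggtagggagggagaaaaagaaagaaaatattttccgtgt
Gzmm (chr10:79693576-79693875, plus strand): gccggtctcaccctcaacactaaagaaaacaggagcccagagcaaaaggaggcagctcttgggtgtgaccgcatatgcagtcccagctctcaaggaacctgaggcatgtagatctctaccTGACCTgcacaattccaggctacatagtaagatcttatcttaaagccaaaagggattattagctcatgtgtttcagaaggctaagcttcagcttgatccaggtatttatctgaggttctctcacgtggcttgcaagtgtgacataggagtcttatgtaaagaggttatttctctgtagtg
Cga (chr4:34893529-34893828, plus strand): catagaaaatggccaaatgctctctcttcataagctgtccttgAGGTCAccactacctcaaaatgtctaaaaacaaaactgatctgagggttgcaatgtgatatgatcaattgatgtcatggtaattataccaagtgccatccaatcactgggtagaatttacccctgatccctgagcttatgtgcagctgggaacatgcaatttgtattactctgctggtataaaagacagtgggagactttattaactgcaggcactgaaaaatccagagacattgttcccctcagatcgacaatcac
Krt7 (chr15:101412153-101412452, plus strand): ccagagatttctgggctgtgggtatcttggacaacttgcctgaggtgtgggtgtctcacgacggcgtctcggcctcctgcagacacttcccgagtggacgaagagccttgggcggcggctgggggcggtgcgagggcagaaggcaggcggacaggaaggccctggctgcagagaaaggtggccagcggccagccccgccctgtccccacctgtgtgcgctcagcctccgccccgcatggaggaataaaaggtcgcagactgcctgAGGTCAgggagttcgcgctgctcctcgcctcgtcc
The half-site began 225, 130 and 207 bases before the start in *Rarg*, *Gzmm* and *Cga*, and at base 16 of the transcribed part in *Krt7*. *Gzmm* had a second start in the table whose window held AGTTCA instead, and *Rarg* a second one with none of these motifs. These matches are letters in a window and were not tied to binding.

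Genes of the X chromosome as a whole lay higher than the autosomes in *Rarg* KD, as they did in *Nr1h3* KD and *Nr2c2* KD against the same NC libraries. This was noticed in the values and not planned. Of 381 X-linked genes tested, 22 were higher (5.77%) and 2 lower (0.525%) at the wider limits, against 112 higher (1.26%) and 157 lower (1.76%) of 8914 autosomal genes. The median log2 fold change was 0.24 for the X and -0.096 for the autosomes, and the X median lay above that of each of the 19 autosomes (-0.17 to 0.071). In *Nr1h3* KD the X median was 0.20 and the autosomal median -0.00017, with 3.94% and 1.04% of genes higher at the wider limits. In *Nr2c2* KD these medians were 0.029 and -0.26, with 2.1% and 0.527% higher, and in *Nr5a2* KD they were -0.13 and -0.23, with 2.89% and 3.53% higher. By library the X median minus the NC mean was 0.18 in *Rarg* KD rep 1, where the autosomes were at -0.31, and 0.28 in *Rarg* KD rep 2, where they were at 0.10. The NC libraries differed on this measure too, with the X at 0.17 and the autosomes at 0.012 in rep 1 and the X at -0.17 and the autosomes at -0.012 in rep 2, and without NC rep 2 the higher X-linked genes came to 11 (2.87%) with a median of 0.088. In the direct contrast with the other single KD groups, which uses no NC library, the X median was 0.28 and the autosomal median 0.067, with 20 X-linked genes higher and 2 lower at the wider limits.

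Markers of embryo sex also differed between the libraries. *Xist*, the RNA that silences an X chromosome in female cells, was at 1.86 and 0 FPKM in NC, at 18.1 FPKM in *Rarg* KD rep 1 and at 0.475 FPKM in *Rarg* KD rep 2. The Y-linked *Ddx3y*, an RNA helicase gene, was at 8.32 and 15.5 FPKM in NC, listed at 0 in KD rep 1 and at 7.86 FPKM in KD rep 2. *Kdm5d*, *Uty* and *Usp9y* as well as *Eif2s3y* were also listed at 0 in *Rarg* KD rep 1 and above 0 in the other 3 libraries. The same pattern, no Y-linked transcript and *Xist* at 9.10 FPKM, stood in *Nr2c2* KD rep 1. The labels do not give the sex of the pooled embryos, and the part of sex in the results was not tested. With X-linked and Y-linked genes left out, 166 lower and 129 higher genes remained at the wider limits.

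**Figure D4:**
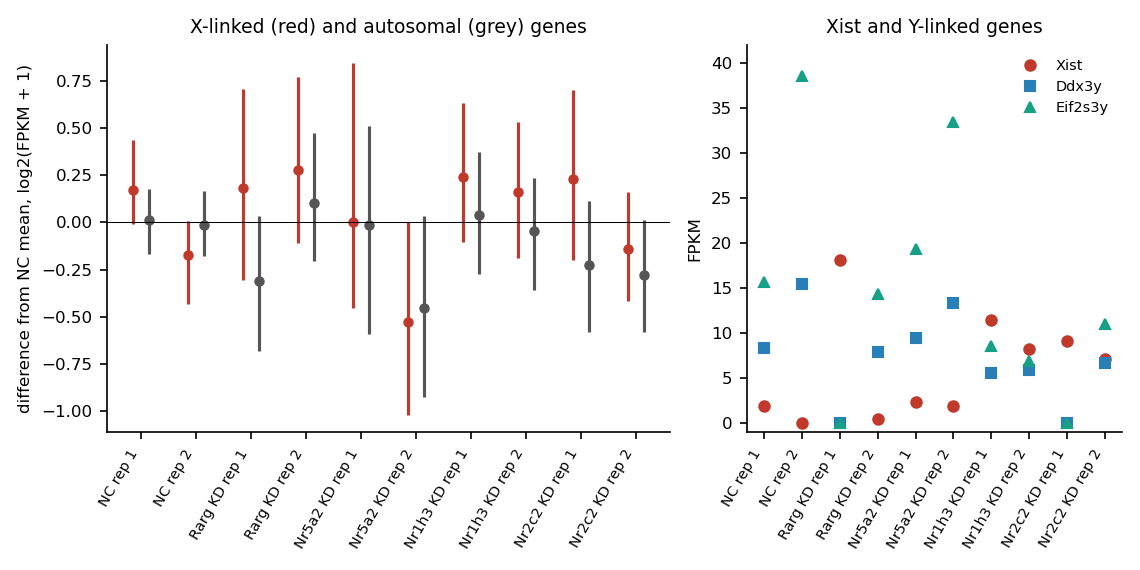
Left, median (point) and quartiles (line) of the difference from the NC mean on the log2(FPKM + 1) scale for X-linked (red) and autosomal (grey) genes in each library of the single KD experiment. Right, level in FPKM of *Xist*, *Ddx3y* and *Eif2s3y* in the same libraries, with both Y-linked genes at 0 in *Rarg* KD rep 1 and *Nr2c2* KD rep 1.

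Of the retinoid pathway genes many were listed at 0 at this stage, and none but *Rarg* passed the wider limits, which 3.15% of all genes passed. Of 26 genes for uptake, synthesis and breakdown in the table, 8 passed the filter on low values and 14 were listed at 0 in all 4 libraries, among them the retinaldehyde dehydrogenases *Aldh1a1* and *Aldh1a3* and the catabolic *Cyp26a1*, *Cyp26b1* and *Cyp26c1*. *Aldh1a2* was at 0 and 0.405 FPKM in NC and at 0 and 0.551 FPKM in KD. *Rdh10*, the retinol dehydrogenase of embryonic tissues, was at 11.97 and 5.59 FPKM in NC and at 8.58 and 19.5 FPKM in KD, with overlapping groups. *Fabp5*, which carries fatty acids and retinoic acid, was at 32.1 and 38.8 FPKM in NC and lower in both KD libraries at 6.72 and 16.9 FPKM (unadjusted p = 0.0515 from limma). It was also lower in *Nr5a2*, *Nr1h3* and *Nr2c2* KD against the same NC libraries, with log2 fold changes of -1.09, -1.54 and -1.29. With 8 genes tested, a count of 0 is near that share and is no result about the list. The median of the list was 0.091 (-0.24 without the 1 gene listed at 0 throughout a group) beside -0.079 for all genes.

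Of 41 classical retinoic acid target genes, 7 passed the filter, 0 passed the wider limits (beside 3.15% of all genes) and 19 were listed at 0 in all 4 libraries, including *Cyp26a1*, *Crabp2*, *Hoxa4*, *Hoxb4* and *Hoxa5*. *Gata6*, a primitive endoderm regulator, was at 55.6 and 67.8 FPKM in NC and lower in both KD libraries at 23.9 and 39.1 FPKM (unadjusted p = 0.0673 from limma). It was also lower in *Nr5a2*, *Nr1h3* and *Nr2c2* KD against the same NC libraries, with log2 fold changes of -1.92, -1.14 and -0.81. *Stra13* was at 80.0 and 67.0 FPKM in NC and at 28.8 and 50.3 FPKM in KD (unadjusted p = 0.0707 from limma). It was also lower in *Nr5a2*, *Nr1h3* and *Nr2c2* KD against the same NC libraries, with log2 fold changes of -1.62, -0.15 and -0.92. The symbol stands here for a gene on chromosome 11 (120572256 to 120575052 in mm9). Whether that gene is the retinoic acid target known by this name was not checked. *Foxa1* was at 21.8 and 20.6 FPKM in NC and at 21.9 and 15.6 FPKM in KD. The median of the 7 was -0.19. Of 19 corepressor and coactivator genes 17 passed the filter and 0 the wider limits, with a median of -0.085. *Gps2*, a subunit of the NCOR complex, was at 40.1 and 13.3 FPKM in NC and at 19.4 and 30.0 FPKM in KD. *Med1*, the mediator subunit that binds nuclear receptors, was at 17.2 and 23.7 FPKM in NC and at 12.8 and 19.5 FPKM in KD. For both cofactors the levels overlapped between the groups.

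Of the other nuclear receptors, 13 of 41 passed the filter and *Nr4a1* was the 1 gene at the wider limits (list median -0.14). *Nr1h2*, the liver X receptor beta gene, was at 49.7 and 51.4 FPKM in NC and at 34.0 and 49.5 FPKM in KD, and *Nr1d1*, a clock repressor, was at 4.46 and 4.85 FPKM in NC and at 5.36 and 1.65 FPKM in KD.

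Pluripotency factors were close to NC as a list, with a median of 0.11 over 20 tested genes and 1 lower and 0 higher at the wider limits. The lower one was *Klf4*, at 5.40 and 8.81 FPKM in NC and at 2.67 and 3.16 FPKM in *Rarg* KD (log2 fold change -1.02, unadjusted p = 0.027, adjusted p = 1 from limma). *Klf5*, a factor of both early lineages, was at 327 and 247 FPKM in NC and at 166 and 163 FPKM in KD, where the log2 fold change of -0.78 was short of the limit (unadjusted p = 0.0469 from limma). Both KD libraries lay below both NC libraries for these genes. *Klf4* was also lower in *Nr5a2*, *Nr1h3* and *Nr2c2* KD against the same NC libraries, with log2 fold changes of -2.08, -1.365 and -0.71. *Klf17* went the other way, at 26.9 and 46.5 FPKM in NC and at 124 and 59.6 FPKM in KD (unadjusted p = 0.139 from limma). Over the Kruppel-like factor family 11 of 17 genes were tested and the median was -0.35, with *Klf4* alone at the wider limits.

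*Pou5f1*, the OCT4 gene, was at 138 and 167 FPKM in NC and at 102 and 119 FPKM in KD, and *Nanog* was at 15.2 and 19.4 FPKM in NC and at 20.5 and 20.9 FPKM in KD. *Dppa3*, a maternal factor, was at 2578 and 2586 FPKM in NC and at 4942 and 3008 FPKM in KD. *Fgf4*, the ligand that drives primitive endoderm, was at 2.78 and 5.84 FPKM in NC and at 6.09 and 21.5 FPKM in KD (unadjusted p = 0.0589 from limma). None of these 4 passed the wider limits. *Klf5* was also below NC in the other single KD groups, at 192 and 186 FPKM in *Nr1h3* KD, at 130 and 164 FPKM in *Nr2c2* KD and at 46.7 and 26.3 FPKM in *Nr5a2* KD, so that *Rarg* KD lay in the range of the former pair of groups and well above *Nr5a2* KD.

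Among 9 tested genes of the primitive endoderm and FGF pathway, *Fgfr1* was lower at the wider limits, at 6.61 and 11.9 FPKM in NC and at 1.56 and 5.33 FPKM in *Rarg* KD (log2 fold change -1.30, unadjusted p = 0.034 from limma). It was also lower in *Nr5a2*, *Nr1h3* and *Nr2c2* KD against the same NC libraries, with log2 fold changes of -1.91, -1.25 and -0.72. *Gata4* was at 7.001 and 10.5 FPKM in NC and at 9.10 and 14.4 FPKM in KD, and *Spry2*, a feedback inhibitor of FGF signalling, was at 22.3 and 35.3 FPKM in NC and at 9.85 and 38.2 FPKM in KD. The median of the list was -0.43, at -0.70 in KD rep 1 and 0.42 in KD rep 2, so the libraries took opposite signs.

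Trophectoderm genes split in the same manner. Of 14 tested, *Krt7* was higher and 0 were lower at the wider limits, and the median was -0.75 in KD rep 1 and 0.34 in KD rep 2. *Dab2* was at 20.4 and 24.9 FPKM in NC and at 2.70 and 22.3 FPKM in KD, and the keratin *Krt18* was at 15.1 and 10.1 FPKM in NC and at 4.88 and 54.6 FPKM in KD. *Tead4*, the factor that opens the trophectoderm programme, was at 70.1 and 57.0 FPKM in NC and at 29.6 and 62.0 FPKM in KD. In each of these 3 genes *Rarg* KD rep 1 was the lowest of the 4 libraries. *Tfap2c* was below NC in both KD libraries, at 63.3 and 56.1 FPKM in NC and at 35.5 and 44.9 FPKM in KD (unadjusted p = 0.217 from limma). *Cdx2* was at 1.03 and 0.431 FPKM in NC and at 0 and 1.03 FPKM in KD.

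Genes of compaction, junctions and polarity (29 tested) and of blastocoel fluid transport (11 tested) had 0 members at the wider limits, with medians of -0.085 and 0.24. The tight junction gene *Cldn4* was at 95.9 and 137 FPKM in NC and at 42.4 and 89.1 FPKM in KD, and *Cldn7* was at 129 and 78.8 FPKM in NC and at 27.4 and 96.1 FPKM in KD. The water channel genes *Aqp3* (55.9 and 100.4 FPKM in NC, 17.4 and 101.1 FPKM in KD) and *Aqp9* (25.1 and 37.7 FPKM in NC, 43.2 and 51.2 FPKM in KD) did not share a direction. No unadjusted p from limma was under 0.05 in either list.

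Genes of the 2-cell (2C) burst, which are transcribed around zygotic genome activation and silenced afterwards, were the list furthest from NC. Of 23 tested members 20 had a value above 0, with a median log2 fold change of 1.42 (1.44 without the 1 gene listed at 0 throughout a group) beside -0.079 for all genes, and 4 were higher and 0 lower at the wider limits. Over all 10163 genes 4284 had a value above 0, and 1.49% were higher at these limits. The 4 were *Gm8300*, *Pramef25*, *BC080695* and *Usp17le*, the last listed at 0 in NC. *Gm8300* was at 0.241 and 0 FPKM in NC and at 1.87 and 3.57 FPKM in *Rarg* KD (log2 fold change 1.70, unadjusted p = 0.0143, adjusted p = 1 from limma). *Pramef25* was at 0.904 and 0.298 FPKM in NC and at 1.37 and 21.5 FPKM in KD (log2 fold change 2.22, unadjusted p = 0.0325 from limma). *BC080695* was at 0.105 and 0.0662 FPKM in NC and at 0.271 and 11.6 FPKM in KD (log2 fold change 1.88, unadjusted p = 0.0383 from limma). The larger values stood in *Rarg* KD rep 2.

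This holds for the list as a whole. Its median minus the NC mean was 0.39 in *Rarg* KD rep 1 and 1.94 in *Rarg* KD rep 2, and without *Rarg* KD rep 2 the median log2 fold change was 0.40. *Zfp352*, a zinc finger gene of the 2C stage, was at 0.387 and 0 FPKM in NC, at 0.499 FPKM in KD rep 1 and at 50.1 FPKM in KD rep 2. Most members are near 0 in NC embryos, where a value can hardly go lower. A member with an NC mean under 1 FPKM passed the filter only through a KD group where it was high. The count above 0 and the median are therefore partly set by the filter. With no filter the median of the 2C burst list was 0.84, beside 0 for all genes. The abundant members *Sp110* (208 and 190 FPKM in NC, 132 and 139 FPKM in KD) and *Eif1a* (129 and 89.5 FPKM in NC, 64.9 and 87.2 FPKM in KD) were below 0 in log2 fold change. The early 2C-stage genes defined by the study, a list that shares members with this one, had 31 of 33 tested genes above 0, a median of 0.91, and 5 higher and 0 lower genes at the wider limits. With no filter the median of the early 2C-stage list was 0.72. Against the mean of the other single KD groups the median of the 2C burst list was 0.71 with 19 of 23 above 0, beside 0.073 with 5883 of 10163 for all genes. *Nr2c2* KD rep 1 held it higher than either *Rarg* KD library, at 2.21 above the NC mean.

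In the libraries that share none with this comparison, the 2C burst list had a median of 0.082 in 3KD embryos of *Rarg*, *Nr1h3* and *Nr2c2* (14 of 24 genes above 0) and of 0.42 in 8C 4KD embryos (20 of 24 above 0). In 3KD embryos with against without *Rarg* siRNA it was -0.63 with 5 of 24 above 0. The list medians do not share a sign. Over all genes the medians of these contrasts, in the same order, were 0.14 (6028 of 9684 genes above 0), -0.0018 (4743 of 9586) and 0.010 (4983 of 9684). In 3KD embryos of *Rarg*, *Nr1h3* and *Nr2c2* the list median was thus below that of all genes. In the 3KD embryos without *Nr5a2* siRNA, *Rarg* itself had a log2 fold change of -0.92 (unadjusted p = 0.311 from limma), an unclear difference.

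Of the stage lists of the study, the 8C-stage list lay furthest below NC. Its 45 tested genes had a median log2 fold change of -0.50, with 32 below 0, and 4 lower and 1 higher at the wider limits. Over all 10163 genes 5815 were below 0, and 1.66% were lower and 1.49% higher at these limits. The genes named here from these lists were picked after their values were seen. *Apoa1*, the apolipoprotein A-I gene, was at 8.18 and 4.58 FPKM in NC and at 0.709 and 1.18 FPKM in *Rarg* KD (log2 fold change -1.89, unadjusted p = 0.00232 from limma). *Chmp4c*, an ESCRT-III subunit gene, was at 18.8 and 20.4 FPKM in NC and at 3.94 and 9.62 FPKM in KD (log2 fold change -1.51, unadjusted p = 0.00953 from limma). The higher one was *Car4*, a carbonic anhydrase gene, at 4.90 and 0.264 FPKM in NC and at 4.88 and 18.5 FPKM in KD. The median of the 8C-stage list was -0.81 in KD rep 1 and -0.072 in KD rep 2, against -0.29 and 0.11 for all genes in these libraries, so most of it came from KD rep 1. The 4C-stage (15 tested), late 2C-stage (521), zygote-stage (44) and inner cell mass (ICM) genes (46) had medians of 0.32, -0.067, -0.079 and -0.062. Against the other single KD groups the median of the 8C-stage list was 0.096, beside 0.073 for all genes, so the direct contrast does not set *Rarg* KD apart.

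**Figure D5:**
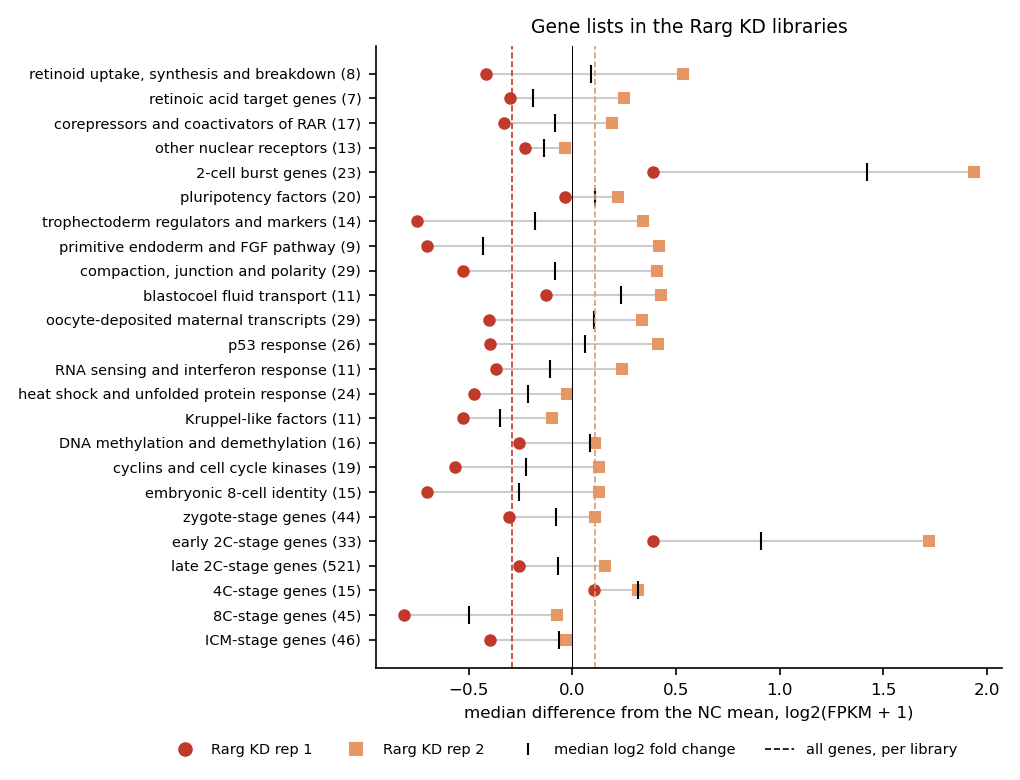
Median difference from the NC mean on the log2(FPKM + 1) scale (horizontal axis) of each gene list with at least 7 tested genes (number in brackets), in *Rarg* KD rep 1 (red circle) and rep 2 (orange square), with the median log2 fold change as a black tick and the median of all genes as dashed lines (-0.29 and 0.11). The 2C burst and early 2C-stage lists lie to the right in both libraries, and the 8C-stage list lies left of all genes in both.

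Maternal transcripts laid down in the oocyte were mixed, with 1 of 29 tested genes lower and 0 higher at the wider limits and a median of 0.10. *Khdc3*, a member of the subcortical maternal complex, was at 320 and 264 FPKM in NC and at 102 and 183 FPKM in *Rarg* KD (log2 fold change -1.08, unadjusted p = 0.0372 from limma). *Khdc3* was at 155 and 213 FPKM in *Nr1h3* KD, at 126 and 318 FPKM in *Nr2c2* KD and at 2.14 and 2.67 FPKM in *Nr5a2* KD. The *Rarg* KD mean was thus below that of the former pair of groups, and its log2 difference of 1.46 from the mean of all 3 (unadjusted p = 0.0023 from limma) came from *Nr5a2* KD. *Ooep*, of the same complex, was at 4.15 and 5.81 FPKM in NC and at 0 and 3.87 FPKM in KD.

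Of 16 tested genes of DNA methylation and demethylation, *Dnmt3l*, the partner of the de novo methyltransferases, was lower at the wider limits. It was at 38.5 and 82.0 FPKM in NC and at 14.2 and 27.3 FPKM in *Rarg* KD, both below both NC libraries (log2 fold change -1.46, standard error 0.455, unadjusted p = 0.00771, adjusted p = 1 from limma). *Dnmt3b* was at 5.99 and 5.62 FPKM in NC and at 3.03 and 4.48 FPKM in KD, and *Trim28* at 76.0 and 93.6 FPKM in NC and at 57.0 and 79.5 FPKM in KD. The list had a median of 0.087 and no higher member at the wider limits.

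Stress and cell cycle lists held 2 genes at the wider limits, beside 3.15% of all genes. In the RNA sensing and interferon list (11 tested, median -0.11) *Bst2*, an antiviral membrane protein gene, was at 13.6 and 16.8 FPKM in NC and at 3.13 and 5.78 FPKM in KD (log2 fold change -1.61, unadjusted p = 0.0241 from limma), and *Irf1* was listed at 0 in NC and at 0.546 and 2.06 FPKM in KD. *Bst2* was also lower in *Nr5a2*, *Nr1h3* and *Nr2c2* KD against the same NC libraries, with log2 fold changes of -1.54, -1.245 and -1.60. Heat shock and unfolded protein response genes (24 tested, median -0.21) had 0 members at the wider limits. The chaperone *Hsp90aa1* was at 498 and 484 FPKM in NC and lower in both KD libraries at 337 and 273 FPKM, a log2 difference of -0.69 (unadjusted p = 0.0395 from limma). The p53 response list had 0 of 26 at the wider limits and a median of 0.060, with *Cdkn1a* at 87.2 and 84.3 FPKM in NC and at 49.5 and 119 FPKM in KD. Cyclins and cell cycle kinases had 0 of 19 and a median of -0.22, with *Cdk1* at 256 and 189 FPKM in NC and at 148 and 132 FPKM in KD. Of 15 sperm and blood cell markers 4 passed the filter and 0 the wider limits, with *Hba-a1* at 18.1 and 9.78 FPKM in NC and at 7.26 and 19.4 FPKM in KD.

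The question of what *Rarg* siRNA does beyond the other siRNAs was put to 2 contrasts that use no NC library. Between *Rarg* KD and the mean of the other 3 single KD groups 0 of 10163 genes (0%) had an adjusted p under 0.05 from limma, and 490 genes (4.82%) had an unadjusted p under 0.05, 103 lower (1.01%) and 387 higher (3.81%) in *Rarg* KD. The wider limits were passed by 63 lower genes (0.62%) and 203 higher genes (2%). Without *Rarg* KD rep 1 the count at an adjusted p under 0.05 was 24. In 3KD embryos with against without *Rarg* siRNA, on a background of *Nr5a2* siRNA, 0 of 10626 genes (0%) had an adjusted p under 0.05 and 153 (1.44%) an unadjusted one. *Rarg* itself had a log2 difference of -1.87 there (unadjusted p = 0.0293 from limma). The embryos compared in this second contrast also differ in *Nr1h3* or *Nr2c2* siRNA.

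Genes at the wider limits were then followed in libraries that the comparison did not use. *Rarg* itself had a log2 fold change of -0.92 in 3KD embryos of *Rarg*, *Nr1h3* and *Nr2c2* (unadjusted p = 0.311 from limma). In 8C 4KD embryos it was -1.20 (unadjusted p = 0.0582 from limma). With the *Rarg* difference this unclear, the shares of matching signs cannot decide whether changes after *Rarg* KD recur. In 3KD embryos of *Rarg*, *Nr1h3* and *Nr2c2* against their own NC, 128 of 299 genes (42.8%) had the sign they had in *Rarg* KD, beside 44.4% of 9684 genes in all. In 8C 4KD embryos, which received the same siRNA with 3 others, 198 of 299 genes (66.2%) had the same sign, beside 56.2% of 9586 genes in all. For the named lower genes the count was 3 of 14 in the former and 9 of 15 in the latter, and for the named higher genes 4 of 15 and 10 of 15. In 4KD embryos *Trim38* had a log2 fold change of -2.512 (unadjusted p = 0.002 from limma) and *Nr4a1* of -1.97 (unadjusted p = 0.00962 from limma), while in 3KD embryos without *Nr5a2* siRNA their log2 fold changes were 0.16 and 0.057. *Tceal8* and *Cga*, higher in *Rarg* KD, had log2 fold changes of -0.027 and 0.062 in 4KD embryos. *Krt7* had log2 fold changes of -1.69 in 4KD embryos (unadjusted p = 0.0621 from limma) and of -1.17 in the 3KD embryos (unadjusted p = 0.0301 from limma), the sign opposite to that in *Rarg* KD.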

How the data were processed

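RNA-seq libraries of pooled mouse embryos were analysed. The authors mapped reads to mm9 with TopHat and deposited FPKM values computed by Cufflinks on refFlat genes, and how repeated or overlapping genes were split is not given in the sources used here. Per the labels, CASAVA 1.8, Bowtie2 2.2.2, MACS 1.4.2 and bedtools 2.29.0 were also used in the series. FPKM files of 32 libraries were read here, with 24006 genes listed. FPKM carry no read counts, so no counting interval is given, and depth was read only relative to NC rep 1. Values were tested as log2(FPKM + 1) with limma 3.58.1 in R 4.3.3 (empirical Bayes with a trend, Benjamini-Hochberg adjustment). The fit held the 10 libraries of the single KD experiment in 5 groups, over the 10163 genes that averaged 1 FPKM or more in any group. The 3KD and 4KD experiments were fitted apart. Each group held 2 libraries, and nothing says that they came from separate mating days, so p-values measure the spread between these libraries.

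The members and gene lists were chosen with earlier results of these data known. Genes were named if they were siRNA targets or RAR and RXR genes, if the adjusted p was under 0.05, if they were among the 15 lower or 15 higher genes of largest fold change at the wider limits with no overlap between groups and an average of 5 FPKM or more in a group, or if they were among the 3 members of a list with the smallest p or the 3 with the highest level. *Nanog*, *Krt18*, *Cdx2*, *Dnmt3b*, *Zfp352*, *Usp17le*, the stage-list genes, the sex-linked markers and genes given as listed at 0 were named after their values were seen. On simulated data for *Rarg* KD against NC with 200 changed genes, 89% were recovered at a log2 change of 3 (9623 genes tested), 53.5% at 2 (9634 genes) and 0% at 1 (9648 genes). The changed genes were drawn from the more abundant genes only, so recovery at low levels was not simulated. Noise was drawn independently for each library, without a shift of a whole library. Unchanged genes called at an adjusted p under 0.05 numbered 9, 7 and 0 at log2 changes of 3, 2 and 1. Alternatives were another pseudocount, other filters, 2 scalings, no trend, a replicate block, the 2 groups alone and each library left out. Leaving out X-linked and Y-linked genes was added after seeing the data. Start-site windows came from RefSeq, GRCm38.p6, matched by symbol. The authors' peak and signal files were not used.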

Additional observations from a re-analysis of the deposited data

How the results depend on the processing

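The count of genes at the limits of the study was 0, and it was 1 without a trend and 1 in the fit of only the 2 groups compared. Leaving out each library gave 0 to 2 genes. At an adjusted p under 0.05 the count of 1 became 0 with a pseudocount of 0.1, 4 with no filter, 0 with a mean FPKM of at least 5, 2 with median-ratio scaling and 2 with quantile normalization, and 0 to 16 with each library left out, the 16 without *Rarg* KD rep 1. *Rarg* itself was at -2.40 with median-ratio scaling (adjusted p = 0.0168 from limma) and at -2.43 with quantile normalization (adjusted p = 0.0167 from limma), and at -2.76 to -2.28 with each library left out (adjusted p = 0.157 to 0.728 from limma). At the wider limits a mean FPKM of at least 5 gave 112 lower and 58 higher genes, and leaving out each library gave 61 to 659 lower and 132 to 562 higher genes. In the contrast with the other single KD groups the count of 0 became 3 with no filter, 1 with median-ratio scaling and 1 with quantile normalization, and 0 to 24 with each library left out. In the 3KD contrast it became 2 with no filter and 0 to 1 with each library left out. Gene lists with a median below that of all genes numbered 12 of 21, and 7 to 15 with each library left out. The share of genes with the same sign in 3KD embryos was 33.8% with a mean FPKM of at least 5 and 32.5% to 53.7% with each library left out, and in 4KD embryos it was 57.1% to 65.2% with each library left out. The cause of these changes was not tested. Of the values that answer a comparison under an alternative, 96 kept their side, 31 moved and 2 became stronger, as given above. List medians, which carry no test, changed sign in 12 of 27 lists without *Rarg* KD rep 1, among them the trophectoderm list (0.43), the primitive endoderm and FGF list (0.34) and the retinoic acid targets (0.26), in 6 without *Rarg* KD rep 2, and in 1 to 6 under each other pseudocount, filter, scaling or left-out NC library. The median of all genes went from -0.079 to 0.13 without *Rarg* KD rep 1.

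The replicate numbers were not shown to pair the libraries, since deviations of same-numbered libraries correlated at 0.0195 between NC and *Rarg* KD and at -0.040 to 0.14 over the 10 pairs of groups. With a replicate block *Rarg* was at -2.52 (adjusted p = 0.173 from limma), 1 gene had an adjusted p under 0.05 and 0 passed the limits of the study, and 191 lower and 160 higher genes passed the wider limits. With 2 libraries a group, a log2 change of 1 was not recovered at an adjusted p under 0.05 in the simulation with 200 changed genes. Other numbers of changed genes were not simulated, so it shows only that differences of that size can be missed.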
